A study of Mus musculus with 62 samples.

Results

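The 9 genes described here mark microglia and were followed across 3 brain regions: the receptors Cx3cr1, P2ry12, Csf1r and Trem2, the surface protein Tmem119, the complement chains C1qa, C1qb and C1qc, and the lysosomal protease Ctss. They were chosen as the rows of the count tables whose Ensembl identifier maps to these symbols, and all 9 were found among 12483 genes in all. The table of the nucleus accumbens (NAc) and prefrontal cortex (PFC) held 9 of them among 11569 rows. The table of the suprachiasmatic nucleus (SCN) held 8 among 12047 rows, and Trem2 was not among the SCN rows used here.

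Microglia are the resident macrophages of the brain. They need signalling through the CSF1 receptor to survive, they are held in a surveying state by neuronal CX3CL1 acting on CX3CR1, and they extend processes toward extracellular nucleotides through P2RY12. They also make C1q, which starts the classical complement pathway and tags synapses for removal, and cathepsin S, which cuts antigens and extracellular matrix.

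The libraries came from C57BL/6J mice in a study of circadian rhythm disruption (CRD), in which the light/dark cycle was inverted repeatedly during early adolescence. By the labels, mice with adolescent CRD, mice with adult CRD and control mice on a regular cycle were killed at ZT6, about 4 weeks after the paradigm ended. Each library was made from a frozen punch of 1 region of 1 mouse, giving 19 SCN, 26 NAc and 17 PFC libraries of 26 mice. Only region and mouse number are labelled for a library, so CRD, age at exposure and sex cannot be told apart from other variation between libraries. The study's methods name adolescent CRD and control mice only for these brains, so whether adult CRD is among them is not settled. In punches, fewer microglia and less RNA per microglial cell cannot be told apart either.

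Total counts were 16496666 to 35389742 for SCN libraries, 28879724 to 60009482 for NAc libraries and 31216225 to 50333579 for PFC libraries, and the members were read from 41 counts (Trem2 in 1 PFC library) to 3381 counts (Ctss in 1 PFC library). The share of counts on mitochondrial ribosomal RNA was 20.5% to 51.6% for SCN libraries, 39.0% to 69.3% for NAc libraries and 42.0% to 59.1% for PFC libraries. The library SCN J1157 had the lowest share, and NAc J1018, NAc J1019 and NAc J965 had the highest shares, from 65.3% to 69.3%. Mouse numbers fall into a range up to J1021 and a range from J1140, which were treated as possible batches. The labelled regions matched their markers between the NAc and PFC, where 7 of 7 striatal neuron genes were called higher in the NAc, with a median log2 fold change of 4.55. All 7 known SCN genes looked up, among them Avp, Six6 and Prok2, were in the SCN table, but at uneven levels. Avp, which encodes vasopressin, ran from 22.6 to 187.4 CPM, and SCN J1199 was among the 2 lowest libraries for 7 of these genes and SCN J1018 for 4.

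The C1q genes lie side by side on the minus strand of chromosome 4 of GRCm38, with C1qb at chr4:136880129-136886187, C1qc at chr4:136889804-136893065 and C1qa at chr4:136895917-136898803. Ctss lies at chr3:95526786-95556403 on the plus strand and P2ry12 at chr3:59216272-59262871 on the minus strand, inside the gene Med12l, which runs the other way. Cx3cr1 lies at chr9:119901616-120069879, Tmem119 at chr5:113793729-113800516 and Trem2 at chr17:48346401-48354147. Csf1r shares 873 exon bases with Hmgxb3 on the other strand. Whether the counting used strand is not given in the sources used here, so reads from those bases cannot be assigned to either gene.

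Because C1qb, C1qc and Ctss were among the members that rose and fell with Cx3cr1 in the NAc, the reference sequence upstream of their RefSeq starts is shown, with that of P2ry12, which did not. These stretches lie outside the exons of each gene in the annotation and are written 5′ to 3′ on the strand of the gene. For C1qc the stretch is the 99 bases farthest from the start among the 250 upstream, and it does not reach the start. The bases nearer to it overlap annotated exons. They cover chr4:136886201-136886450 for C1qb, chr4:136893066-136893164 for C1qc, chr3:95526536-95526785 for Ctss and chr3:59262986-59263235 for P2ry12 (RefSeq, GRCm38.p6). Capitals mark GAGGAA, a core of the sites bound by PU.1, the transcription factor that defines macrophages and microglia, or its reverse complement TTCCTC.
C1qb: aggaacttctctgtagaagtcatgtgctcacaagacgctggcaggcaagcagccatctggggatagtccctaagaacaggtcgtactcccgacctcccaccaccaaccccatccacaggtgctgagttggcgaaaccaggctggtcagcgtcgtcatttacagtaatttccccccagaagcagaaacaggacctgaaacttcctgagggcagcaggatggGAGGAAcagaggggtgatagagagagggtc
C1qc: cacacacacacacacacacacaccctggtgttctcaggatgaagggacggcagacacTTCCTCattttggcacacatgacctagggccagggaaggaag
Ctss: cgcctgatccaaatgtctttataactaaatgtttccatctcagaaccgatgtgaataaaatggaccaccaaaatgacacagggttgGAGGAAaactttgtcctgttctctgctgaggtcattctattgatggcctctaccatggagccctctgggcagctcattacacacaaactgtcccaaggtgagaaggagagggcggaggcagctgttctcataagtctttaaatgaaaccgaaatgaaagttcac
P2ry12: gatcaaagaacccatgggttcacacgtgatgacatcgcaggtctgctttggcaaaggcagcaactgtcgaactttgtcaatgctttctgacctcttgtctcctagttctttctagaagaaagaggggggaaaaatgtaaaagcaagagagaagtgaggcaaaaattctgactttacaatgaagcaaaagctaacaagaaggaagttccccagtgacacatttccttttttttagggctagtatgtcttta
The motif began 30 bases upstream of the start of C1qb, 193 bases upstream in C1qc on the other strand and 164 bases upstream in Ctss. The stretch upstream of Trem2 also held it, 40 bases from the start, so 4 of the 5 members with such a stretch had it. On either strand it was present in 23.3% of 32851 RefSeq promoters over the same 250 bases, and in 9.91% over the 99 bases taken for C1qc. The P2ry12 stretch had no match, but it held the shorter run GGAA, which was present in 93.4% of the promoters. Trem2 had the motif although its slope on Cx3cr1 in the NAc was -0.02. A match is only a run of letters, and no binding was measured here.

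Levels are given as CPM, the reads of a gene scaled to a common library total, after correcting each library by the trimmed mean of M-values (TMM), separately for the 2 tables. Each median is followed by the lowest and highest library in parentheses. Cx3cr1, the fractalkine receptor, had a median of 15.5 CPM (9.94 to 18.6) among SCN libraries, 21.4 CPM (14.6 to 25.2) among NAc libraries and 19.8 CPM (14.9 to 24.0) among PFC libraries. Csf1r, the receptor for CSF1 and IL-34, had 26.2 CPM (21.4 to 33.8) among SCN libraries, 35.4 CPM (21.9 to 44.3) among NAc libraries and 34.8 CPM (25.6 to 42.3) among PFC libraries. For both receptors the SCN libraries lay toward the low end, but the ranges of all 3 regions overlapped.

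P2ry12, the purinergic receptor, showed the widest gap between regions. Its median was 10.6 CPM (5.64 to 16.5) among SCN libraries, 24.7 CPM (15.7 to 32.8) among NAc libraries and 21.7 CPM (18.2 to 27.6) among PFC libraries. A single SCN library, J1158, overlapped the NAc, and the next highest SCN library had 13.9 CPM, below every NAc and PFC library. The median was 2.34 times higher in the NAc and 2.05 times higher in the PFC than in the SCN.

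Tmem119, a membrane protein that marks resident microglia, and Trem2, a lipid receptor, were the members with the lowest counts. Tmem119 had 3.75 CPM (2.12 to 6.10) among SCN libraries, 3.88 CPM (2.78 to 5.59) among NAc libraries and 4.45 CPM (3.15 to 6.12) among PFC libraries. Trem2 had 2.34 CPM (1.49 to 4.61) among NAc libraries and 2.04 CPM (1.34 to 3.07) among PFC libraries. In both genes the regions overlapped over most of their range, and the highest Trem2 value, from NAc J1019, stood apart from the next NAc library at 3.16 CPM.

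**Figure D1:**
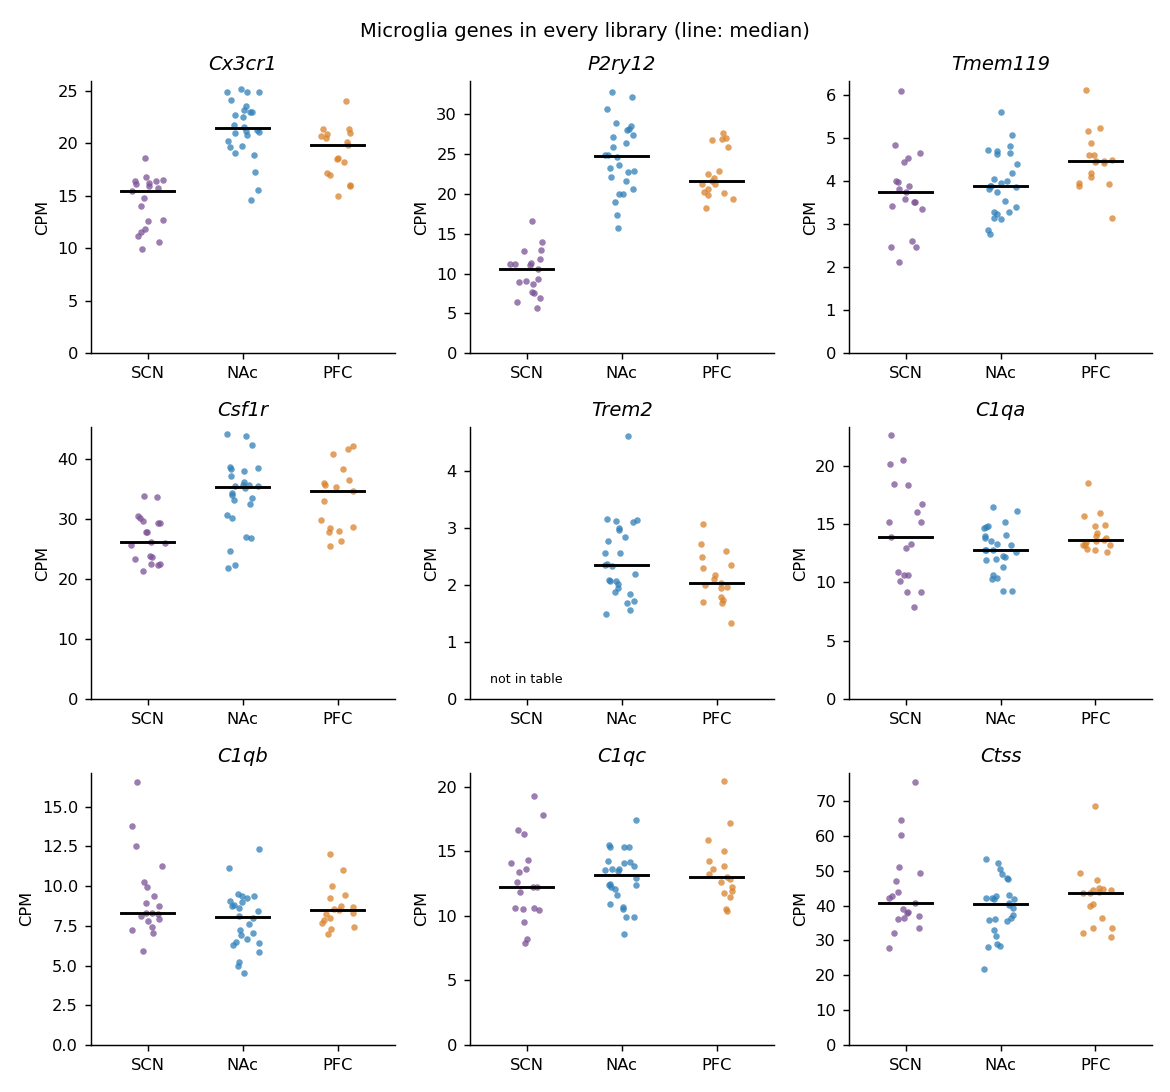
Level of each microglia gene (CPM, linear axis from 0) in every library of the SCN, NAc and PFC, with 1 point for each library and a line at the median. P2ry12 is the member whose SCN points, 5.64 to 16.5 CPM, lie almost wholly below those of the NAc and PFC, and the C1q chains and Ctss overlap in all 3 regions.

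The chains of C1q, which form 1 complex, stayed within a narrow band between regions. C1qa had 13.9 CPM (7.87 to 22.6) among SCN libraries, 12.8 CPM (9.25 to 16.4) among NAc libraries and 13.6 CPM (12.6 to 18.5) among PFC libraries. C1qb had 8.30 CPM (5.94 to 16.5), 8.06 CPM (4.55 to 12.4) and 8.52 CPM (6.98 to 12.02) in the same order. C1qc had 12.2 CPM (7.89 to 19.3), 13.2 CPM (8.58 to 17.4) and 13.003 CPM (10.3 to 20.5). For each chain the SCN range covered most of the other ranges. Ctss, which encodes cathepsin S, behaved likewise, with 40.7 CPM (27.8 to 75.5) among SCN libraries, 40.5 CPM (21.8 to 53.3) among NAc libraries and 43.7 CPM (31.0 to 68.5) among PFC libraries.

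Per kilobase of the longest coding transcript, the order of the chains was C1qa, C1qc and C1qb in each region. Their median levels per kilobase were 13.4, 10.2 and 7.63 CPM for SCN libraries, 12.3, 10.95 and 7.41 CPM for NAc libraries, and 13.1, 10.8 and 7.83 CPM for PFC libraries. C1qb stayed below C1qa per length in every library, with a ratio of at most 0.880 for SCN, 0.795 for NAc and 0.720 for PFC libraries. C1qc and C1qa were less distinct, because their per-length ratio spanned 0.524 to 1.33 among SCN libraries, 0.695 to 1.03 among NAc libraries and 0.600 to 1.11 among PFC libraries. Ctss was the highest member on this scale, with medians of 30.0, 29.9 and 32.2 CPM per kilobase, and Tmem119 was the lowest in the SCN and NAc, with 1.67 and 1.73. In the PFC, Trem2 and Tmem119 were close, at 1.88 and 1.99 CPM per kilobase. The places of C1qc and Trem2 in these orders depend on the length used. All annotated exons together span 1931 bases for C1qc, against 1040 for C1qa and 1088 for C1qb. For Trem2 they span 4946 bases, against 2315 for Tmem119. By that length C1qc would stand below C1qb in each region, and Trem2 below Tmem119 in the NAc and PFC.

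SCN counts stand in a table of their own, and their levels were not tested against the other regions. No member had an SCN range that lay apart from both other regions, against 11.1% of the 11133 shared genes, 2.67% with the SCN below both. With all shared rows scaled together, or with plain CPM of the total count, the SCN range of P2ry12 lay below both, as did 5.08% and 1.34% of all genes, and the NAc median was 2.74 and 2.55 times the SCN median. Without SCN J1199 and SCN J1018, the SCN median was 14.8 CPM for Cx3cr1, 10.6 CPM for P2ry12 and 13.3 CPM for C1qa. The SCN median was the lowest of the 3 regions for 5 of 8 members and 25.6% of all shared genes, and for 8 of 8 members and 39.5% of genes when the tables were scaled together. The median shared gene differed between the SCN and NAc by 0.24 on the log2 scale in the first scaling and by 0.01 in the joint scaling. Relative to that median gene, P2ry12 was lower in the SCN than in the NAc by a log2 value of -1.46 in both scalings, and Cx3cr1 by -0.70 and -0.71. For C1qa the same values were -0.11 and -0.14, so these receptors stood farther below the median gene in the SCN than C1qa did.

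Ratios of counts within a library do not depend on the scaling. For each read of Csf1r there was a median of 0.367 reads of P2ry12 among SCN libraries (0.233 to 0.735), 0.724 among NAc libraries (0.354 to 1.47) and 0.675 among PFC libraries (0.509 to 0.960). For each read of Csf1r there were 1.55 reads of Ctss among SCN libraries (1.08 to 2.94), 1.15 among NAc libraries (0.858 to 1.64) and 1.22 among PFC libraries (0.948 to 1.78). The SCN thus had the lowest median ratio for P2ry12 and the highest for Ctss, with overlapping ranges in both. The share of mitochondrial ribosomal RNA was also lowest in the SCN, at 38.2% in the median library, against 49.4% for the NAc and 46.6% for the PFC. The share of Gm42418, Gm26917 and Gm23935, genes that overlap or resemble ribosomal RNA, was highest in the SCN, at 16.2% against 2.52% and 3.79%. The part of either share in these ratios was not tested.

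Whether microglia genes differ between the reward-related regions was tested on the shared table of the NAc and PFC with edgeR's quasi-likelihood test over all 11569 rows. Calls required a fold change of 1.2 or more, together with an adjusted p (Benjamini-Hochberg) under 0.05. None of the 9 members was called, whereas 45.4% of all genes were, 23.7% higher and 21.7% lower in the NAc. At an unadjusted p under 0.05 there were 3 of 9 members and 7637 of 11569 genes, and DESeq2 also called 0 members. The median log2 fold change of the members was -0.07, beside 0.02 over all genes.

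Those 3 members, each with an adjusted p under 0.05 but under the fold limit, did not move in 1 direction. Cx3cr1 had a log2 fold change of 0.15 (SE 0.06, adjusted p = 0.0218) and was higher in the NAc in 12 of 17 mice with both regions. Tmem119 had -0.18 (SE 0.08, adjusted p = 0.0328) and was higher in the NAc in 3 of 17 mice. C1qa had -0.14 (SE 0.06, adjusted p = 0.0479) and was higher in the NAc in 4 of 17 mice. Cx3cr1 and Tmem119 thus stood on opposite sides of 0 in the same punches.

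The other members had log2 fold changes whose 95% intervals included 0. They were 0.12 (-0.03 to 0.27) for P2ry12, 0.03 (-0.13 to 0.18) for Csf1r and 0.20 (-0.03 to 0.42) for Trem2. C1qb had -0.14 (-0.33 to 0.04), C1qc -0.07 (-0.22 to 0.08) and Ctss -0.10 (-0.28 to 0.07). With the mouse as a block in the 17 mice with both regions, C1qb was called lower in the NAc, with -0.27 (SE 0.09, adjusted p = 0.0184). In the lower range of mouse numbers P2ry12 was called higher in the NAc, with 0.31 (adjusted p = 0.00636), and no member was called in the upper range. Without the 9 NAc libraries that had over 100 CPM of Slc17a7, a cortical neuron gene, Trem2 was called higher in the NAc, with 0.31 (adjusted p = 0.0143). Of all genes, 49.1% were called with the block, 46.9% in the lower range, 43.1% in the upper range and 50.3% without those libraries.

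Ligands and partners of microglial receptors were measured in the same punches. Of 8 of them, 4 were called, all lower in the NAc, where 45.4% of all genes were called and 21.7% were lower, and the median of the list was -0.20. Csf1 and Il34, both ligands of CSF1R, were among them. Csf1 had 3.36 CPM (1.65 to 5.13) among NAc libraries and 5.26 CPM (3.32 to 6.36) among PFC libraries, a log2 fold change of -0.67 (SE 0.12, adjusted p = 4.15e-06). It was lower in the NAc in every one of the 17 mice, although the ranges of the regions overlapped. Il34 had 8.11 CPM (5.74 to 10.5) among NAc libraries and 11.2 CPM (8.90 to 14.3) among PFC libraries, a log2 fold change of -0.46 (SE 0.07, adjusted p = 7.5e-08), and was higher in the NAc in 1 of 17 mice.

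The other called partners act through inhibitory receptors. Cd200, the ligand of CD200R, had 31.7 CPM (19.8 to 44.1) among NAc libraries and 43.6 CPM (39.6 to 49.8) among PFC libraries, and its log2 fold change was -0.45 (SE 0.09, adjusted p = 1.13e-05). Sirpa, a receptor for CD47 that neurons express too, had 124.5 CPM (93.2 to 148.4) among NAc libraries and 180.9 CPM (148.6 to 196.2) among PFC libraries, so that its ranges did not overlap, with a log2 fold change of -0.50 (SE 0.05, adjusted p = 1.63e-11). Cd47, the partner of SIRPA, had 0.21 (SE 0.05, adjusted p = 0.000173), under the fold limit. Cx3cl1, the ligand of CX3CR1, had 0.09 (SE 0.08), Tgfb2, which encodes a growth factor, 0.05 (SE 0.06), and Apoe, which encodes a lipid carrier bound by TREM2, 0.15 (SE 0.09), none of them called.

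**Figure D2:**
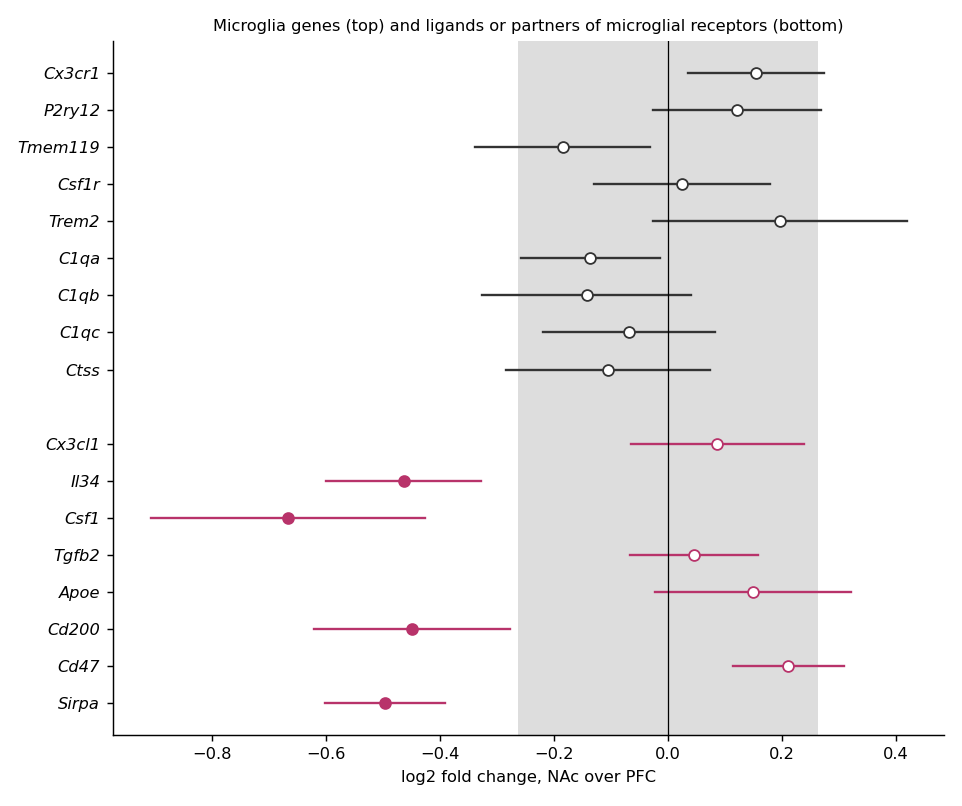
Log2 fold change of the NAc over the PFC (edgeR, points with 95% intervals) for the microglia genes and for ligands or partners of their receptors, with filled points where a gene was called and grey between a fold of 1.2 in either direction. All 9 microglia genes are open points between -0.18 and 0.20, and Csf1, Il34, Cd200 and Sirpa are filled points between -0.67 and -0.45.

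Of the 8 ligands and partners, 3 had an SCN range apart from both other regions, against 11.1% of all shared genes. Cx3cl1 had 66.2 CPM (46.4 to 116.4) among SCN libraries, against 224.3 CPM (146.3 to 285.3) and 208.0 CPM (145.9 to 261.4) among NAc and PFC libraries. Apoe had 1683 CPM (1348 to 2200) among SCN libraries, against 673.8 and 579.4 CPM, and the SCN range lay above both others. Cd200 had 82.8 CPM (67.0 to 108.9) among SCN libraries and its SCN range was also above both. The SCN range of Cx3cl1 lay below both others except with plain CPM of the total count, while those of Apoe and Cd200 lay apart in all 4 scalings. Csf1 and Il34 were ordered in opposite ways, with SCN medians of 9.67 and 3.90 CPM, the highest and the lowest of the 3 regions, and with ranges that overlapped another region. Tgfb2, Cd47 and Sirpa overlapped as well, with SCN medians of 10.3, 47.0 and 101.3 CPM.

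Few other genes of microglia were called, beside 45.4% of all genes in the same test. Of 28 further microglia genes tested, 2 were called, with a median of 0.08. Sall1, a transcription factor of microglial identity, was higher in the NAc with 0.43 (SE 0.13, adjusted p = 0.00263), and Fcgr3, an Fc receptor, was lower with -0.28 (SE 0.08, adjusted p = 0.00152). Of 6 tested genes of TREM2 signalling, Pik3r1, a regulatory subunit of a lipid kinase, was called (-0.38), and the list had a median of -0.08. Among other genes linked to complement, Csmd2 was called lower (-0.79) and Csmd3 higher (0.86) in the NAc.

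Lysosomal and activation genes went both ways. Of 19 lysosomal genes, 2 were called higher and 4 lower in the NAc, with a median of -0.08. Over all genes 23.7% were called higher and 21.7% lower. The largest changes were those of Cd68, a lysosomal membrane protein (0.62), and of the proteases Ctsc (-0.55), Ctsh (-0.51) and Ctsz (0.48). Of 9 genes of activated microglia in the table, 3 were called higher and 2 lower, with a median of -0.01. Lpl, a lipase (1.93), and the tetraspanin Cd9 (0.64) were higher, and B2m, the light chain of class I molecules (-0.56), was lower. Many of these genes are also expressed by neurons or other glia, and the cell of origin was not measured.

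Some markers of neighbouring cell types differed between the same punches, where 23.7% of all genes were called higher in the NAc and 21.7% lower. All 10 oligodendrocyte genes were called higher in the NAc (median 2.09), and the sum of their CPM was 712.1 to 1654 among NAc libraries and 151.0 to 462.7 among PFC libraries. Border macrophages share several members with microglia. All 3 of their genes in the table were called lower in the NAc, namely Mrc1, the mannose receptor (-1.30), Dab2 (-0.61) and Stab1 (-0.46), and their summed level was 8.30 to 15.2 CPM among NAc libraries and 15.8 to 37.4 CPM among PFC libraries. The other 8 border macrophage genes, which include Cd163, Lyve1 and Pf4, were not in the table. Blood genes were called lower for 3 of 5, among them Hba-a2 (-0.94), and genes of mural cells and fibroblasts for 6 of 9, among them Col1a2 (-1.56). Of the rest, 3 of 10 astrocyte genes were called lower, 1 of 9 endothelial genes lower, 3 of 5 oligodendrocyte precursor genes higher, and 7 of 11 neuron genes lower and 1 higher. The part of these cells in the values of the members was not tested.

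Whether the members vary together was asked within each region, by the slope of each gene's log2 expression on the log2 CPM of Cx3cr1, with edgeR over all other genes of the table. In the NAc, 4 of 8 members were called with a positive slope, against 15% of all genes (31.6% in either direction). The slopes were 1.05 (SE 0.17, adjusted p = 0.000403) for Csf1r, 1.23 (SE 0.26, adjusted p = 0.00173) for C1qb, 0.76 (SE 0.19, adjusted p = 0.00436) for C1qc and 1.06 (SE 0.24, adjusted p = 0.00237) for Ctss. A slope of 1 means a change in proportion to Cx3cr1. C1qa had 0.46 (SE 0.21, adjusted p = 0.0846), and P2ry12 (-0.30), Tmem119 (0.05) and Trem2 (-0.02) were not called either.

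Much of the variation in the NAc lay in a few libraries. NAc J1018 and NAc J1019, the lowest in Cx3cr1 at 14.6 and 15.5 CPM, were also among those with the highest mitochondrial ribosomal RNA share. Without them, 3 members were called (Csf1r, C1qb and C1qc), while the share of all genes with a positive call fell to 2.59%. Without NAc J965 as well, 1 member was called, Csf1r (1.04, adjusted p = 0.0332), against 0.951% of all genes. With the mitochondrial ribosomal RNA share as a covariate, 0 members and 7 genes in all were called by edgeR. At an unadjusted p under 0.05 there were 6 of 8 members and 1552 of 11568 genes in that fit. All 8 slopes were then positive, from 0.36 to 1.10. Within the lower and upper ranges of mouse numbers, 3 members and 1 member were called, against 8.19% and 1.27% of all genes with a positive call, and Csf1r was called in both.

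In the PFC, 1 of 8 members was called, Csf1r with a slope of 1.07 (SE 0.18, adjusted p = 0.00114), against 7.33% of all genes with a positive call. Ctss had 0.77 (SE 0.31, adjusted p = 0.1002) and the other slopes lay between 0.03 and 0.44. Within the ranges of mouse numbers, which held 7 and 10 PFC libraries, no member was called, against 0.294% and 0.372% of all genes with a positive call. With the mitochondrial share as a covariate Csf1r was called again, with 0.84 (adjusted p = 0.0061), against 3.92% of all genes with a positive call.

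In the SCN, 0 of 7 members were called and 0 of 12046 genes (0%), with an unadjusted p under 0.05 for 3 members and 1224 genes. DESeq2 called 1 member and 10 genes. Csf1r again had the smallest p, with a slope of 0.69 (SE 0.12, adjusted p = 0.0907), and the other members had slopes from 0.13 to 0.73. Without SCN J1157, Csf1r was called, with 0.67 (adjusted p = 0.0305), as were 199 genes in all. Neither range of mouse numbers gave a called member, and none was called without SCN J1018 and SCN J1199, where Csf1r had 0.65 (adjusted p = 0.257). In each of these fits 0 of 12046 genes were called.

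Csf1r was thus the member that followed Cx3cr1 most closely in each region. Pearson's r was 0.883 for SCN (permutation p = 1e-05, the smallest the resamples can give, adjusted p = 0.0803), 0.791 for NAc (permutation p = 1e-05, adjusted p = 0.00127) and 0.828 for PFC libraries (permutation p = 6e-05, adjusted p = 0.00428). Spearman's rho was 0.893, 0.831 and 0.843 (permutation p = 1e-05, 1e-05 and 5e-05). By rho adjusted over all genes, 4 members were called in the NAc against 7.53% of genes, 1 in the PFC against 3.41%, and 0 in the SCN. There, 1 member and 1130 genes had an unadjusted p under 0.05. That member was Csf1r, at the smallest p the resamples can give, with an adjusted p of 0.0602 for rho. At that floor a call needs several genes with the smallest p, so the number of resamples limits the SCN result. Leaving out the 2 libraries with the most extreme Cx3cr1, r was 0.886, 0.746 and 0.797. Within the lower and upper ranges of mouse numbers r was 0.929 and 0.864 in the SCN, 0.735 and 0.850 in the NAc, and 0.858 and 0.877 in the PFC. Over all genes the median r with Cx3cr1 was 0.008, -0.015 and -0.029 in the 3 regions.

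Whether slopes differ between the NAc and PFC was tested as an interaction. No member was called and no gene (0%) by edgeR, and C1qb was the only member with an unadjusted p under 0.05, among 553 genes. Its slope was higher in the NAc by 0.86 (SE 0.40, p = 0.0395, adjusted p = 0.952). With the mouse as a block no member and no gene was called either, and 725 of 11568 genes had an unadjusted p under 0.05. The differences were larger there for the C1q chains, at 0.91 for C1qa (SE 0.33, p = 0.0117), 1.15 for C1qb (SE 0.43, p = 0.0158) and 1.03 for C1qc (SE 0.31, p = 0.00351), with adjusted p of 0.759, 0.778 and 0.742.

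**Figure D3:**
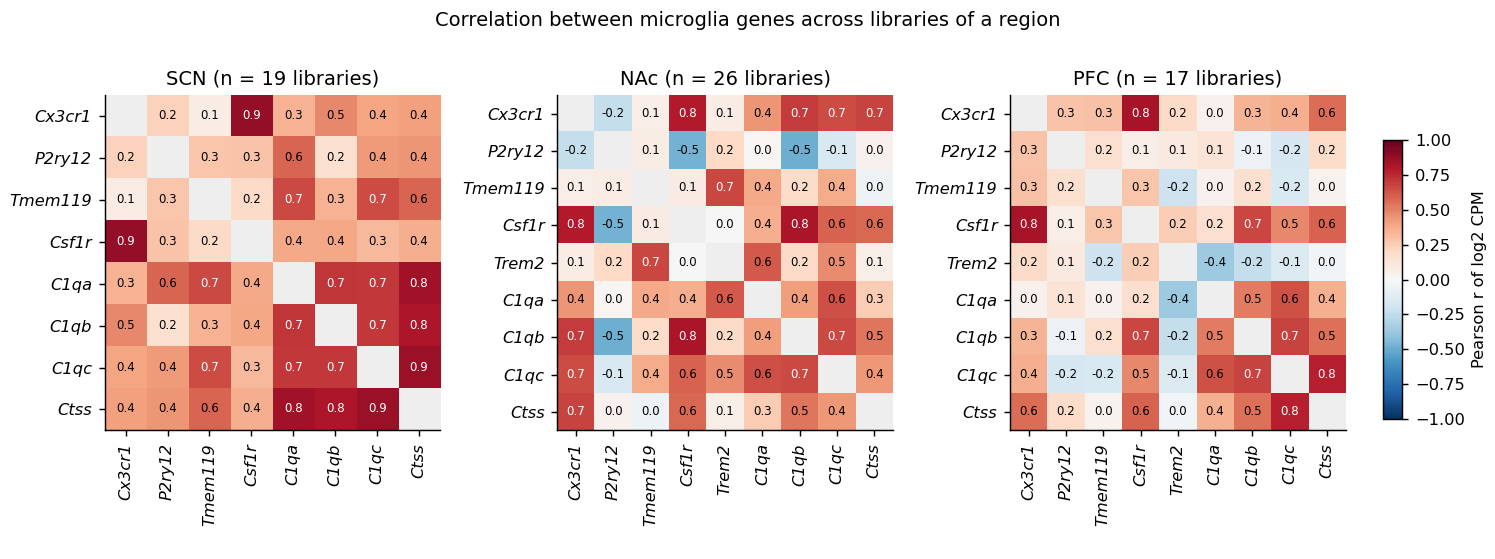
Pearson's r of log2 CPM between each pair of microglia genes across the libraries of a region, with red for positive and blue for negative values and the value in each cell. Cx3cr1 with Csf1r (0.883, 0.791 and 0.828) and the pairs of C1q chains are red in all 3 regions, whereas P2ry12 is blue against Csf1r and C1qb in the NAc (-0.475 and -0.489).

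Among the pairs of members, the C1q chains moved together in all 3 regions. The median r over their 3 pairs was 0.706 for SCN, 0.648 for NAc and 0.635 for PFC libraries. Over all pairs of members the median was 0.420 for SCN (28 pairs, all positive), 0.369 for NAc (30 of 36 positive) and 0.185 for PFC libraries (28 of 36 positive). In the SCN, Ctss went with each chain, with r of 0.838 for C1qa, 0.810 for C1qb and 0.862 for C1qc. Tmem119 went with C1qa and C1qc there, with 0.661 and 0.654, but with 0.041 and -0.151 in the PFC. Trem2 went with Tmem119 (0.667) and C1qa (0.612) in the NAc, and had -0.206 and -0.360 with them in the PFC. These values share libraries and scaling and describe the samples, and those of 1 pair were not compared between regions by a test. Without SCN J1157 the SCN median over all pairs was 0.302, with 27 of 28 positive, without SCN J1018 and SCN J1199 it was 0.456, with 26 of 28 positive, and without the 3 NAc libraries of highest mitochondrial share the NAc median was 0.451, with 33 of 36 positive.

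P2ry12 had negative correlations with other members in the NAc. Its r was -0.475 with Csf1r and -0.489 with C1qb, against 0.815 between those 2 genes. In the PFC the same pairs had 0.066 and -0.061, and in the SCN 0.288 and 0.157. With Csf1r or C1qb in place of Cx3cr1 as the gene regressed on, P2ry12 was called in the NAc with a negative slope, of -0.46 (SE 0.17, adjusted p = 0.0302) and -0.35 (SE 0.13, adjusted p = 0.0409). Negative slopes were called for 2723 and 2101 of 11568 genes in these fits. The fits on Csf1r and C1qb were not repeated without NAc J1018, NAc J1019 and NAc J965, or with the mitochondrial share as a covariate. Without those libraries 33 of 36 pairs of members were positive. The slope of P2ry12 on Cx3cr1 was then positive, as it was with the covariate. The part of these libraries in the negative values was not tested.

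Because libraries differed in mitochondrial ribosomal RNA, every gene's log2 CPM was also correlated with that share, a test added after the shares were seen. In the NAc, 1 member was called with a positive r, against 29.7% of all genes, and 4 with a negative r, against 30.4%, so the number called was close to that of genes at large. The positive one was P2ry12, with r = 0.719 (permutation p = 8e-05, adjusted p = 0.000302) and rho = 0.700 (permutation p = 0.00012). Its r was 0.700 without the 2 libraries farthest in share, and 0.757 and 0.722 in the ranges of mouse numbers. On the negative side stood Csf1r with r = -0.702 (permutation p = 9e-05, rho = -0.548 with permutation p = 0.00464), C1qb with -0.688 (permutation p = 8e-05, rho = -0.549 with permutation p = 0.00442), Cx3cr1 with -0.643 (permutation p = 0.00045, rho = -0.506 with permutation p = 0.00937) and Ctss with -0.432 (permutation p = 0.0274, rho = -0.249 with permutation p = 0.221). For the first 3 of these r was -0.498, -0.566 and -0.533 without the 2 farthest libraries, and for Ctss it was -0.251.

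With TMM over nuclear protein-coding genes alone, r in the NAc was 0.732 for P2ry12 and -0.684 for Csf1r. In the lower and upper ranges Csf1r had -0.808 and -0.441, C1qb -0.671 and -0.740, and Cx3cr1 -0.779 and -0.290. In the SCN, P2ry12 was the member called, with r = 0.674 (permutation p = 0.00123, adjusted p = 0.00869) and rho = 0.486 (permutation p = 0.0365, adjusted p = 0.166), so the call was lost by rho, against 14.6% of all genes with a positive call and 16.2% with a negative one. That relation was 0.433 without SCN J1157 and SCN J1159, and -0.034 and 0.880 in the lower and upper ranges, so it rested on libraries of the upper range. SCN J1158, which had the highest P2ry12 level of the region, also had its highest mitochondrial share. In the PFC, Csf1r was called with r = -0.666 (permutation p = 0.00403, adjusted p = 0.0153, rho = -0.703 with permutation p = 0.00208), against 19% of all genes with a negative call and 18.2% with a positive one, and r was -0.622 with the 2 farthest libraries left out, and -0.716 and -0.470 in the ranges. P2ry12 had 0.347 there and was not called. What sets the mitochondrial share was not tested.

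**Figure D4:**
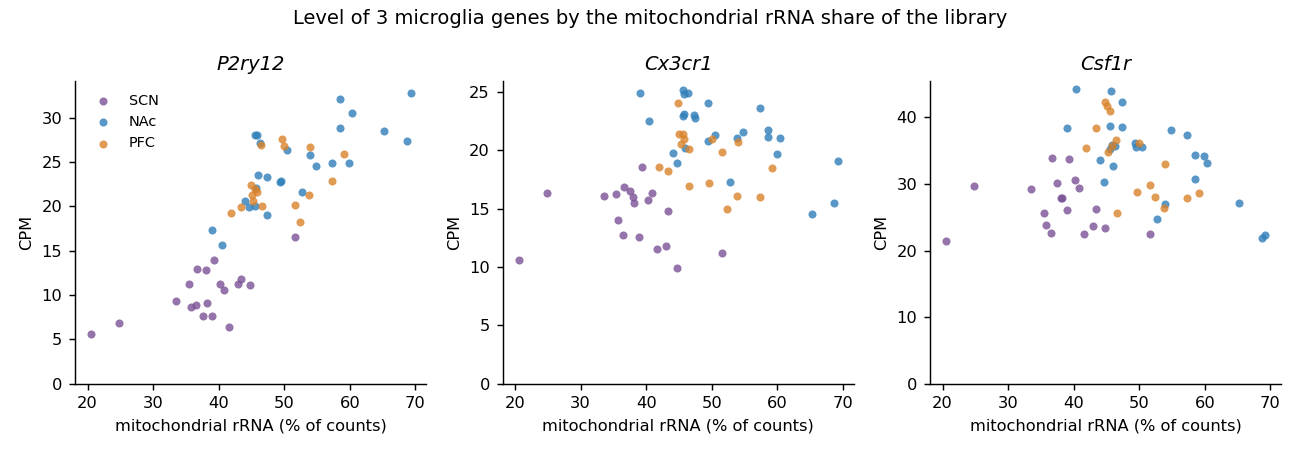
Level (CPM, linear axis from 0) of P2ry12, Cx3cr1 and Csf1r in each library against the share of its counts on mitochondrial ribosomal RNA genes (percent), with 1 point for each library coloured by region. In the NAc, P2ry12 rises along the axis (r = 0.719), while Cx3cr1 (-0.643) and Csf1r (-0.702) fall.

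Of 11125 genes in both tables that are not members, 10 had patterns most like the mean of the standardised members, ranked by the lowest r of the 3 regions. They were Psd (0.693), Vsir (0.665), Laptm5 (0.641), Apoe (0.612), Vtn (0.598), Kbtbd11 (0.594), Mpeg1 (0.584), Tns3 (0.581), Bcan (0.577) and Pecam1 (0.575). Vsir, Laptm5 and Mpeg1 are known from macrophages and other leukocytes, whereas Bcan belongs to the extracellular matrix of the brain, Vtn is found in pericytes and Pecam1 in endothelium. The lowest r exceeded 0.5 in 16 genes and had a median of -0.301 over all of them. Of 28 further microglia genes in the NAc and PFC, 8 and 7 had a called positive slope on Cx3cr1, against 15% and 7.33% of all genes, and in the SCN 0 of 23 did. Positive slopes were also called among genes of other cells. In the NAc they were called for 5 of 10 oligodendrocyte genes, 3 of 5 genes of their precursors, 4 of 10 astrocyte genes, 4 of 9 endothelial genes and 4 of 8 ligands and partners. In the PFC the same lists had 0, 3, 3, 4 and 2 called genes.

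Whether mice that were high in 1 region were high in another was asked for the mice with both. No member was called for a positive r between the NAc and PFC of 17 mice, between the SCN and NAc of 19 mice or between the SCN and PFC of 12 mice, and 0% of all genes were in each pair of regions. A permutation test adjusted over all genes was used, and with Spearman's rho the counts were also 0. At an unadjusted p under 0.05 there were 0, 1 and 0 members, and 1050, 357 and 627 genes. The 1 member was Tmem119 between the SCN and NAc, with r = -0.474 (permutation p = 0.0401, adjusted p = 0.9998).

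The median r of the members was 0.016 between the NAc and PFC, with 5 of 9 positive, beside a median of -0.075 over all genes. It was -0.295 between the SCN and NAc, where 0 of 8 members had a positive r, beside -0.023 over all genes, and -0.057 between the SCN and PFC, beside 0.130. Cx3cr1 had 0.190, -0.233 and 0.380 in the 3 pairs of regions and P2ry12 -0.310, -0.329 and -0.195. Within the lower and upper ranges of mouse numbers no member was called. In the lower range of the SCN and PFC, the 4 mice have too few orders for an exact p to pass the adjustment unless most genes share the smallest p, so the absence of calls there carries no information. With 7 mice in the lower range of the other pairs, and 8 in the upper range of the SCN and PFC, the exact test is also limited. Many genes would have to share a very small p for a call there. Each region enters 2 of the 3 pairs, so the values of the pairs are not independent.

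**Figure D5:**
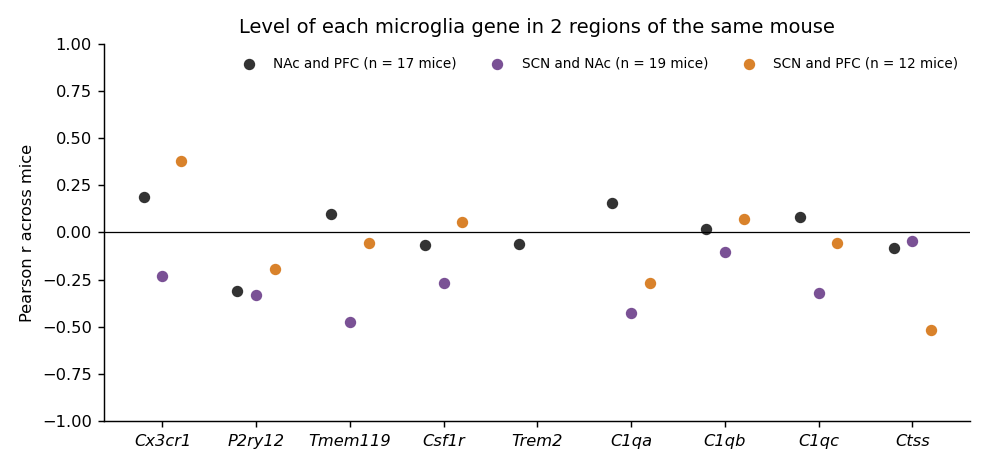
Pearson's r across mice between the log2 CPM of each microglia gene in 2 regions of the same mouse, for the NAc and PFC (17 mice), the SCN and NAc (19 mice) and the SCN and PFC (12 mice). Points scatter around 0, and those of the SCN and NAc lie at or below -0.047 for all 8 genes measured.

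The libraries at the ends of these ranges were not the same mice in each region. SCN J1157 was the lowest in 6 of 8 members and among the 3 lowest in all 8, and SCN J1018 was the highest in 3. NAc J1018, from the same mouse as the latter, was the lowest in 2 of 9 members and among the 3 lowest in 6. In the PFC, J1013 and J1141 were each the lowest in 3 of 9 members and J1019 was the highest in 3. J1019 was also the highest NAc library in Tmem119 and Trem2 and the lowest there in Csf1r and Ctss, so 1 library held both ends of the range for different members.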

How the data were processed

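The authors aligned 62 single-mouse libraries to GRCm38 with HISAT2 after FastQC 0.11.7, counted reads per gene with HTSeq, removed Y-linked genes and genes without CPM over 1 in at least 50% of the mice of each group, and deposited raw counts per gene in 2 tables. Whether counting used strand is not given in the sources used here. Symbols and positions came from GENCODE M21.

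From these counts, edgeR 4.0.16 in R 4.3.3 gave TMM-scaled CPM (prior count 2) and quasi-likelihood tests, with Benjamini-Hochberg adjustment over all genes of a table, after filterByExpr, which removed 0 rows. DESeq2 1.42.0 was an alternative, as were other scalings, filters, mouse-number ranges and the mouse as a block. Correlations used 100000 resamples, or exact enumeration under 10 mice (Python 3.11.15, NumPy 2.4.6, SciPy 1.17.1). The mouse numbers pair libraries because a number is 1 animal. The NAc and PFC deviations of a mouse correlated at -0.449 to 0.272, over 0.1 in 7 of 17 mice. Between any 2 libraries of a region, chi-square per gene was at least 13.1, so none was a copy of another.

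Genes were named if they were members, ligands or partners of their receptors, called genes of the other lists, or among the 10 nearest neighbours in pattern. Members and lists were chosen with earlier results of these data known. Leaving out single libraries and the mitochondrial share were chosen after seeing the data. On simulated data, edgeR recovered 199 of 200 genes changed 2-fold between NAc and PFC, with 8 false calls, and 78 (SCN), 95 (NAc) and 99 (PFC) of 200 slopes of 1 or -1. P-values measure the spread between libraries from mice of mixed groups. The main tests that joined NAc and PFC libraries had no term for the mouse, although 17 mice gave both regions. One gene is not reported here.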

Additional observations from a re-analysis of the deposited data

How the results depend on the processing

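Groups within a region mix CRD, age at exposure and sex, the SCN table was scaled apart, and the rarest members (Trem2, Tmem119) rest on as few as 41 and 50 counts in a library. The slopes had limited power, since fewer than 50% of simulated slopes of 1 or -1 were recovered in each region.

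Of 76 counts of members under alternatives, 58 stayed within 1.5 times the value reported. The others follow, and the cause was not tested. The number of members with the lowest median in the SCN rose from 5 to 8 when the tables were scaled together. The number called between NAc and PFC rose from 0 to 1 with the mouse as a block (C1qb, -0.27), 1 in the lower range of mouse numbers (P2ry12), 1 without the NAc libraries with Slc17a7 above 100 CPM (Trem2) and 3 without a fold limit, which calls 63.1% of all genes. With the block, in the lower range and without those NAc libraries, 49.1%, 46.9% and 50.3% of all genes were called. The replicate block changed no other call of a member. In the NAc the number of members that vary with Cx3cr1 fell from 4 to 1 in the upper range, 1 without J1018, J1019 and J965 and 0 with the mitochondrial share as a covariate. The share of all genes with a positive call fell with it, from 15% to 1.27%, 0.951% and 0.0519%. In the PFC it changed from 1 to 3 against Csf1r, 0 against C1qb and 0 in each range of mouse numbers. There the share of all genes with a positive call was 10.8%, 0.0173%, 0.294% (lower range) and 0.372% (upper range), against 7.33% in the fit reported above. In the SCN the number of members rose from 0 to 1 against C1qb, with DESeq2, without the 2 libraries farthest in Cx3cr1, with the mitochondrial share as a covariate, without J1157, and without J1157 and J1159. In that order, 0.208%, 0.0664%, 0.0747%, 0.0166%, 1.18% and 1.41% of all genes had a positive call, against 0% in the fit reported above. Leaving out these named libraries and using the covariate were chosen after seeing the data.

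Of 115 fold changes under alternatives 6 became called, and of 286 slopes 10 became called and 15 lost the call. Directions changed for values that had not been called. For fold changes these were C1qc (0.046) and P2ry12 (-0.025) in the upper range, and Csf1r in the lower range (-0.18), with the replicate block (-0.044) and in the same mice without it (-0.038). For slopes on Cx3cr1 in the NAc they were P2ry12 in the upper range (0.083), with the covariate (0.52) and without J1018, J1019 and J965 (0.041), Tmem119 in the lower range (-0.33), and Trem2 against C1qb (0.15), without the 2 farthest libraries (0.77), in the upper range (0.95), with the covariate (0.72) and without J1018, J1019 and J965 (0.97). In the PFC they were C1qa (-0.091) and Tmem119 (-0.0094) without the 2 farthest libraries, Tmem119 in the upper range (-0.054), P2ry12 (-0.064) and Trem2 (-0.37) against C1qb, and Trem2 with the covariate (-0.020). In the SCN it was Tmem119 without the 2 farthest libraries (-0.12), without J1157 (-0.12), without J1157 and J1159 (-0.024) and without J1018 and J1199 (-0.22).

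Of 125 correlations between regions of the same mouse, 23 changed direction. With Spearman's rho these were C1qb for SCN and NAc (0.047), Csf1r for NAc and PFC (0.093) and for SCN and PFC (-0.112), and Ctss for NAc and PFC (0.289). Without the 2 farthest mice they were C1qb for SCN and NAc (0.117), Csf1r (0.380), Ctss (0.429), Tmem119 (-0.191) and Trem2 (0.130) for NAc and PFC, and P2ry12 for SCN and PFC (0.330). In the upper range they were C1qa (-0.052), C1qc (-0.295), Csf1r (0.545), Ctss (0.483), Tmem119 (-0.101) and Trem2 (0.153) for NAc and PFC, C1qb (0.304) and Ctss (0.114) for SCN and NAc, and C1qb (-0.351), Csf1r (-0.158) and Tmem119 (0.335) for SCN and PFC. In the lower range they were P2ry12 for NAc and PFC (0.564) and for SCN and PFC (0.965, 4 mice).

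Of 76 median levels, 26 moved by more than their spread, all under scaling to nuclear protein-coding genes, which sets a smaller total for every library.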
